A study of Mus musculus with 35 samples.

Results

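The wild-type striatum was described from the 8 libraries labelled Htt+/+ Hdac2+/+, chosen by that genotype label alone, out of 35 libraries in the series. Each was a stranded mRNA library from the striatum of 1 mouse, and the series also holds 9 Htt+/+ Hdac2D/D, 7 HttQ111/+ Hdac2+/+ and 11 HttQ111/+ Hdac2D/D mice. HttQ111 is a knock-in allele with an expanded CAG repeat, and Hdac2D/D mice carry floxed Hdac2 alleles together with D9-Cre, a transgene that drives Cre from regulatory sequence of Ppp1r1b in medium-spiny neurons. These 27 mice were used to see whether the same genes varied there, for the same tests of sex and of the A series, and in 1 alternative for the estimate of spread. They were 21.71 to 23 weeks old, and their RNA was extracted from 24 May to 3 June. The CAG length was 110 to 144 in the HttQ111/+ mice and 7 in all Htt+/+ mice.

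The 8 wild-type mice were 21.71 to 22.71 weeks old, 3 females and 5 males, all without Cre. The sample list of the study gives the Hdac2 alleles as C/+ in replicates 1 and 2 and as C/C in the other 6, where C is read here as the conditional (floxed) allele, so that "wild type" means undeleted Hdac2 and not an absence of loxP sites. The floxed line came from a mixed C57BL/6 and 129SeEv background and was then crossed to C57BL/6J. RNA was extracted on 24 May (replicates 1 and 2), 25 May (replicates 6, 8 and 9) and 27 May (replicates 4, 5 and 7). The mouse numbers carry the letter A for replicates 1 and 2, Z for replicate 9 and V for the other 5. The females were replicates 1, 7 and 9. The letter A, the C/+ genotype and the extraction on 24 May fell on the same mice and cannot be told apart. The authors left out 1 further wild-type library, replicate 3, for signs of DNA contamination, and it was not analysed here.

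The 8 libraries held 54762608 to 59722546 counts each. Synthetic spike-in RNA took 0.573% to 1.01% of them and mitochondrial genes 6.14% to 10.4%, the last value being that of replicate 9. No library repeated another: the SD of the log2 difference between a pair of mice over genes ran from 0.317 to 0.442. The sex labels held in every library, with Xist, the RNA that silences an X chromosome, at 2241 to 2480 CPM (counts scaled to a library of 1000000) in the 3 females and at 0.255 to 0.694 CPM in the 5 males. Hdac2 itself ran from 95.6 to 104 CPM and Htt, the gene of the knock-in allele, from 188 to 209 CPM.

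The striatum is the input nucleus of the basal ganglia, and most of its neurons are GABAergic medium-spiny projection neurons. Those of the direct pathway carry the D1 dopamine receptor with dynorphin and substance P, and those of the indirect pathway carry the D2 receptor, the adenosine receptor Adora2a and enkephalin. Dopamine and adenosine act on them through cAMP, with DARPP-32 (Ppp1r1b) as a shared regulator of protein phosphatase 1. A small share of interneurons, together with glia, vessels and neighbouring tissue, adds its own RNA to a bulk dissection, in which fewer cells of a type and less RNA per cell cannot be told apart.

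At least 6 counts in every mouse were found for 16777 of 32863 genes. A mean of at least 1 CPM was reached by 14652 genes, of at least 100 CPM by 2245 genes and of at least 1000 CPM by 76 genes. Protein-coding genes took 96.67% to 96.95% of the counts of a library and annotated long noncoding RNAs 1.10% to 1.44%. The 20 most abundant genes of a library took 9.32% to 13.5% of its counts. With mitochondrial genes set aside, the top 20 took 4.62% to 5.07% and the top 1000 took 46.3% to 47.7%, so the nuclear part of the transcriptome was spread over many genes in every mouse.

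Mitochondrially encoded subunits of the respiratory chain held the top 6 places. mt-Co1 had a mean of 26935 ± 4594 CPM (SD, n = 8 for this and every mean below). mt-Cytb followed with 14725 ± 2814 CPM, and mt-Nd1, mt-Nd2, mt-Nd5 and mt-Nd4 lay between 7372 and 10544 CPM. By CPM, without regard to gene length, the highest nuclear gene was Kif5a, which encodes an axonal transport motor, with 3758 ± 249.8 CPM. Meg3, an imprinted long noncoding RNA, reached 3159 ± 202 CPM, and Scn4b, a sodium channel beta subunit rich in striatum, 2573 ± 275 CPM. The lipid desaturase gene Scd2 stood at 2404 ± 99.02 CPM.

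Other genes of the top 20 were neuronal or neuroglial genes at closely spaced levels. Arpp21, a cAMP-regulated phosphoprotein of medium-spiny neurons, had 2372 ± 163 CPM. Fbxl16, the peptide-processing gene Cpe, the membrane glycoprotein gene Gpm6b, the CaMKII inhibitor gene Camk2n1, the calcium sensor gene Hpca and the calcium pump gene Atp2b1 lay between 1964 and 2125 CPM. The striatal phosphodiesterase gene Pde1b had 1901 ± 81.7 CPM and the enkephalin precursor gene Penk 1889 ± 109.8 CPM. Among noncoding RNAs, Gm42418 averaged 1339 CPM but with a coefficient of variation of 44.65%. RefSeq lists Gm42418 as Rn18s-rs5, an 18S ribosomal RNA-related sequence. Meg3, Rian and Tug1 had coefficients of variation of 6.39%, 4.85% and 4.00%. Malat1 and Neat1, nuclear noncoding RNAs, varied more, with 18.1% and 16.1%, and Malat1 had 1220 CPM in replicate 8 against 755 to 878 CPM in the other 7 mice.

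To compare genes of unequal length, CPM were divided by the merged exon length in kilobases (CPM per kb below). Reads were counted over whole gene intervals, so intronic reads are part of these values. The order by CPM given above was not kept: Kif5a had 538 and Meg3 175 CPM per kb, both below Penk. Markers of medium-spiny neurons spanned a wide range of levels on this scale. Penk had 1156 CPM per kb, Ppp1r1b 527, the cyclase gene Adcy5 243, Adora2a 133, the RGS protein gene Rgs9 129.8, Drd1 121, Drd2 90.35, the substance P precursor gene Tac1 87.1 and the phosphodiesterase gene Pde10a 73.1 CPM per kb. The transcription factor genes Bcl11b and Foxp1 closed this list of 12 markers with 52.9 and 32.5 CPM per kb. All 12 had a mean of at least 100 CPM, so the defining markers of the labelled tissue were present.

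Drd1 and Drd2 stood far above the other dopamine receptors. Drd1 (chr13:54051186-54055658, GRCm38) had 457, 409.9, 458, 469.5, 447, 429.6, 439.5 and 409.7 CPM in replicates 1, 2, 4, 5, 6, 7, 8 and 9. Drd2 had 228.5, 211.5, 206, 234, 224, 228, 241 and 268 CPM in the same order. Per kb, Drd1 was higher than Drd2 in 8 of 8 mice, by 1.352 ± 0.1405 times, with the lowest ratio of 1.07 in replicate 9 and the highest of 1.565 in replicate 4. Drd5 had 1.27, Drd3 0.570 and Drd4 0.0335 CPM per kb, and Drd4 had the fewest counts of the 5.

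Among peptide precursors the order was Penk, the granin gene Scg2 (163 CPM per kb), the interneuron peptide gene Sst (134), Chgb (90.4), Tac1, the interneuron gene Npy (64.5), Vgf (61.3), the dynorphin precursor gene Pdyn (43.4) and Chga (29.6). Penk exceeded Tac1 per kb by 12.04 to 14.2 times in the 8 mice. The dynorphin gene was less even. Pdyn had 113, 113, 149.9, 111, 117, 115, 203 and 78.9 CPM in replicates 1, 2, 4, 5, 6, 7, 8 and 9, so the Tac1 to Pdyn ratio per kb ran from 1.375 in replicate 8 to 3.23 in replicate 9. Nts, the neurotensin precursor gene, had 23.4 CPM in replicate 8 and 2.12 to 4.68 CPM in the other 7 mice. Ucn had no count in any mouse. Neighbours in the order were not always told apart: Scg2 exceeded Sst in 7 of 8 mice, Chgb exceeded Tac1 in 6 of 8, and Npy exceeded Vgf in 4 of 8.

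**Figure D1:**
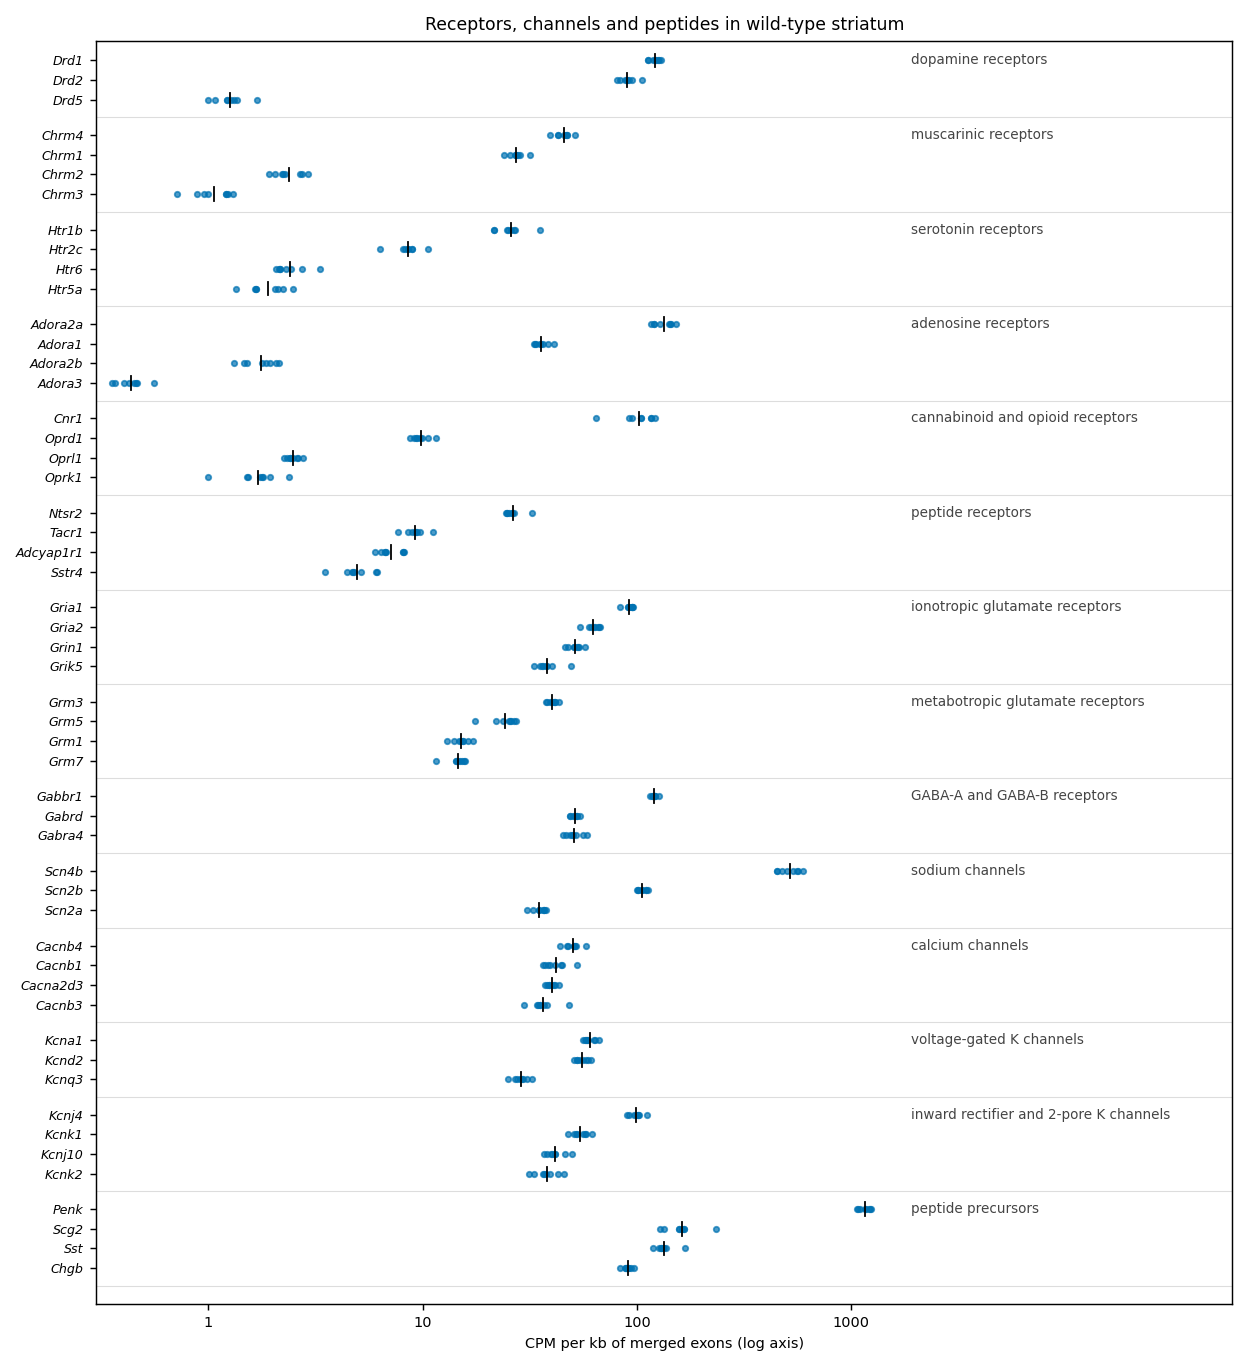
Levels of up to 4 genes among those with the most CPM per kb of merged exons (log axis) in each of 14 receptor, channel and peptide lists, among genes with at least 1 CPM. Points are the 8 wild-type mice and black bars their means; Penk with 1156 and Scn4b with 516.5 CPM per kb stand highest.

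Within each family of G protein-coupled receptors, 1 or a few genes stood well above the rest. Chrm4, the M4 muscarinic receptor gene, had 45.5 and Chrm1 27.4 CPM per kb, with Chrm4 higher in 8 of 8 mice, while Chrm2 had 2.38, Chrm3 1.065 and Chrm5 0.433. Adora2a exceeded Adora1 (35.8 CPM per kb) by 3.145 to 4.35 times, and Adora2b had 1.76 and Adora3 0.436. Htr1b (26.0 CPM per kb) led the serotonin receptors, followed by Htr2c with 8.53, and Htr3b was lowest with 0.0176. Cnr1, the CB1 receptor gene, had 102 CPM per kb, Oprd1 9.81, Oprl1 2.49, Oprk1 1.71, Oprm1 0.5885 and Cnr2 0.0734. Cnr1 was uneven, with 413.5 CPM in replicate 4 against 593 to 781 CPM in the other 7 mice. Hrh3 led the adrenergic and histamine receptors with 40.3 CPM per kb and Hrh4 was lowest. Ntsr2 led the peptide receptors with 26.3 CPM per kb and Galr2 was lowest, and Chrnb2 led the nicotinic subunits with 7.08 against 0.00154 for Chrna6, a subunit of dopamine neurons. Among orphan receptors Gpr139 was lowest, with 0.831 CPM per kb.

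Of the ionotropic glutamate receptor genes, Gria1 (92.2 CPM per kb) led Gria2 (62.7) in 8 of 8 mice, with a ratio of 1.36 to 1.58. Grin1, the obligatory NMDA subunit gene, had 51.6 CPM per kb. Grin2b had 24.9 against 0.871 for Grin2a, a ratio of 25.1 to 31.1 across mice, and Grin3b was lowest with 0.127. Grm3 led the metabotropic receptors with 40.4, followed by Grm5 with 24.2, and Grm6 had no count. Gabbr1 had 120 CPM per kb against 11.6 for its partner subunit gene Gabbr2, a ratio of 9.59 to 11.1. Gabrd (51.3) and Gabra4 (50.9) were among the highest GABA-A subunits, of which Gabra6 was lowest with 0.00899, and Gabrd and Gabra4 were in that order in only 6 of 8 mice. Among glycine receptor subunits Glrb had 51.6 CPM per kb, Glra2 3.94, Glra3 0.0899, Glra1 0.0307 and Glra4 0.0258.

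Channel genes covered the same wide range. Scn4b (516.5 CPM per kb) and Scn2b (106), both beta subunit genes, exceeded the pore-forming subunit genes Scn2a (35.1), Scn8a (20.5) and Scn1a (15.5), while the muscle gene Scn4a was lowest with 0.00838. Cacnb4 led the calcium channel genes with 50.2 and the retinal gene Cacna1f was lowest with 0.005675. Kcna1 (60.3) and Kcnd2 (55.5) led the voltage-gated potassium channels and Kcnq1, a cardiac channel gene, was lowest with 0.0615. The inward rectifier gene Kcnj4 had 99.35 CPM per kb, against 0.114 for Kcnj5. Hcn2 (43.6) led the list of HCN and TRP channels, and Trpv1 was lowest with 0.01205.

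Signalling genes of the cAMP pathway had the highest summed level of the lists after the mitochondrial genes, 21172 CPM over 27 members. Such a sum depends on the number of genes listed, and the 12 medium-spiny neuron markers summed to 10958 CPM. All 27 members had a mean of at least 10 CPM. Ppp1r1b was highest per kb, and the G protein gamma subunit gene Gng7 (478), Rgs4 (401) and Pde1b (352) followed. Adcy9 was lowest with 11.1 CPM per kb. Of 22 striatal transcription factor genes, 17 had at least 10 CPM, with the retinoid receptor gene Rxrg highest (103 CPM per kb) and Gsx2, a gene of the embryonic striatal primordium, lowest (0.1305).

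Spread between mice was measured as the SD of log2 CPM over the 8 mice, in 14083 autosomal and mitochondrial genes with at least 1 CPM on average. The median SD was 0.119, the 95th percentile 0.358 and the 99th percentile 0.606, and 37 genes exceeded 1. With every count taken as independent, the expected counting error was 13.2% for Rps2-ps10 (mean 1.03 CPM) and 1.83% for mt-Nd6 (mean 53.2 CPM). The 2 mates of a read pair appear to have been counted separately, so the counting error is larger than these values. The list medians below were not adjusted for level, so lists of genes with few counts can have higher medians from counting alone. Several receptor, channel and signalling lists lay near or below the median of all genes. The median SD of their members was 0.118 for dopamine receptors, 0.113 for ionotropic glutamate receptors, 0.114 for GABA receptors, 0.102 for sodium channels, 0.108 for cAMP and DARPP-32 signalling and 0.0905 for medium-spiny neuron markers. It was 0.106 for nicotinic subunits, 0.112 for calcium channels, 0.138 for voltage-gated potassium channels, 0.137 for inward rectifier and two-pore potassium channels, 0.1435 for HCN and TRP channels, 0.144 for metabotropic glutamate receptors, 0.153 for orphan receptors and 0.126 for striatal transcription factors. Muscarinic (0.167), adenosine (0.175), adrenergic and histamine (0.216), peptide (0.2395, 18 genes), cannabinoid and opioid (0.295) and serotonin receptors (0.318, 10 genes) and peptide precursors (0.231) had higher medians. Reference genes had a low median, 0.0697, and the 1 ranked glycine receptor gene, Glrb, had 0.0621. The lists with a median of at least 0.35 were the choroid plexus markers (1.04, 4 genes), ependyma markers (0.386, 2 genes), immediate-early genes (0.365), interferon-induced genes (0.363) and cortical projection neuron markers (0.361), and glucocorticoid-responsive genes had 0.313.

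Genes in use as references for RNA quantification differed among themselves. Sdha had a coefficient of variation of 1.67%, Ywhaz 2.10%, Hprt 2.58% and Rack1 2.79%. The other end was held by Gapdh with 14.25% and by Tfrc and B2m, both with 10.9%. Others lay between, from Actb with 3.78% and Eef1a1 with 3.83% through Rpl13a (4.11%), Atp5b (4.30%), Pgk1 (4.53%), Polr2a (4.55%), Tbp (5.09%) and Rplp0 (5.17%) to Cyc1 (6.20%), Ppia (8.05%) and Gusb (9.50%). Gapdh had only 8.04 and Ppia only 8.94 CPM on average. Both have near-identical pseudogene copies and only unique alignments were counted, so their levels here are uncertain.

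**Figure D2:**
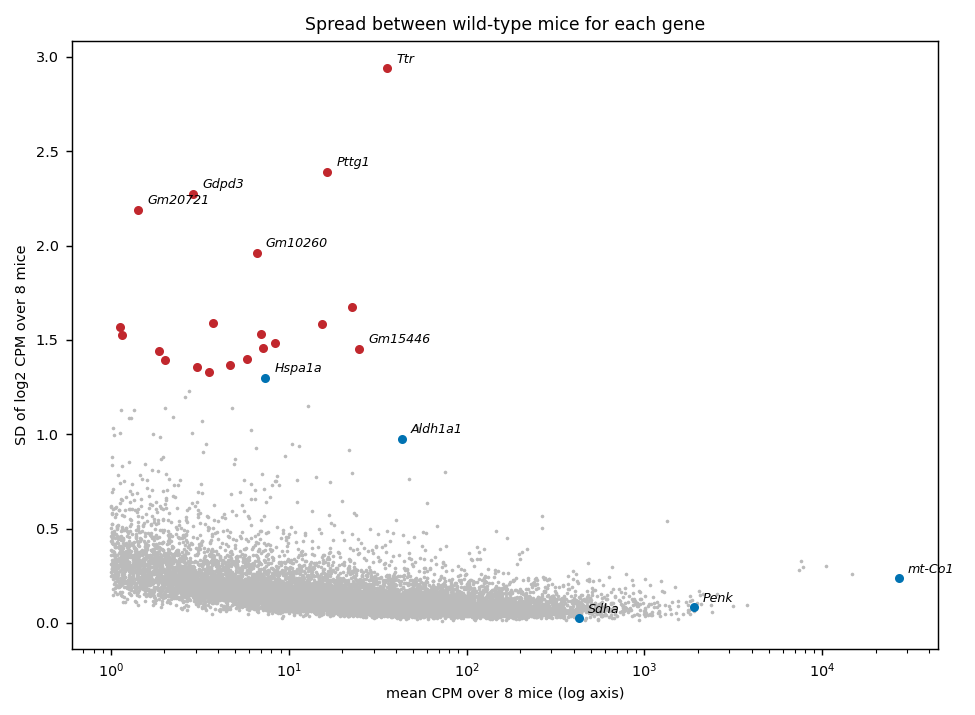
SD of log2 CPM over the 8 wild-type mice against mean CPM (log axis) for the 14083 ranked genes, drawn in grey. Red points are the 20 genes with the largest SD, with Ttr at 2.94 on top, and blue points are Hspa1a, Aldh1a1, Sdha, Penk and mt-Co1.

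Among the 20 most variable genes were Ttr, Pttg1, Gdpd3, Gm20721, Gm10260, Mamdc2, Serpina3n, Chrdl2, Sstr5, Gm26582, Myo7a, Hspa1b, Gm15446, Gm47512, Plin4, A930015D03Rik, Cfap46, Col6a5 and Gm9855, with SDs from 2.94 down to 1.33. They were chosen for their spread, so that spread carries no test. The list of 50 ended at an SD of 0.880 and the next gene had 0.870. All 50 were among the 5% most variable genes within the 27 mice of the other genotypes, after each genotype's mean was removed, and 44 were among the top 1%, so these genes were variable there too. Of the 50, replicate 4 was the highest mouse for 14 genes and replicate 9 was the lowest for 16.

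Ttr, which encodes transthyretin and marks the choroid plexus epithelium, had 167, 41.6, 19.7, 16.2, 1.22, 25.6, 15.5 and 0.230 CPM in replicates 1, 2, 4, 5, 6, 7, 8 and 9. Replicate 1 was highest and replicate 9 lowest, 725 times apart. The other choroid plexus genes Kl and Prlr, both among the 50, were also highest in replicate 1, with 8.98 and 4.59 CPM, and lowest in replicate 9, with 1.15 and 0.384 CPM. The 12 choroid plexus markers together ran from 17.8 to 216 CPM, and 5 of the 12 passed the count filter.

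Several genes fell into separate steps rather than a continuous range. Pttg1 (securin, a regulator of sister chromatid separation; chr11:43420250-43426213) had 20.1 to 23.9 CPM in replicates 1, 2, 4, 5 and 9, 11.97 CPM in both replicates 6 and 7, and 0.143 CPM in replicate 8. Gm15446 had 40.9, 41.9 and 41.1 CPM in replicates 1, 2 and 9, 21.7 to 22.9 CPM in replicates 4, 5 and 6, and 4.66 and 3.07 CPM in replicates 7 and 8. Myo7a, an unconventional myosin gene, had 14.7 to 17.9 CPM in replicates 1, 2 and 9, 8.04 CPM in replicate 6 and 1.57 to 3.20 CPM in the other 4. Gdpd3 had 0.109 to 0.269 CPM in replicates 1, 2 and 9 and 3.05 to 6.15 CPM in the other 5. Cfap46 had the same 3 mice low, with 0.902 to 1.36 CPM against 3.86 to 9.501 CPM. Serpina3n, a protease inhibitor gene of reactive astrocytes, had 28.9, 36.3 and 36.8 CPM in replicates 1, 2 and 9 and 3.12 to 5.29 CPM in the other 5. Replicates 1, 2 and 9, which stood together in 5 of these 6 genes, were of both sexes and of 2 extraction days, and they were the mice with the letters A and Z. Among the 27 mice of the other genotypes, Gm15446 ran from 22.3 to 47.7 CPM, Pttg1 from 0.529 to 26.7 CPM and Gdpd3 from 0.121 to 6.68 CPM, so that the lowest step of Gm15446 was seen in wild-type mice alone among the 35 libraries. The strain background of single mice at these loci was not analysed here.

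Other genes stood out in 1 or 2 mice. Sstr5, a somatostatin receptor gene, had 1.49 and 0.576 CPM in replicates 6 and 9 and 7.64 to 10.4 CPM in the other 6. Gm9855 had 18.7 CPM in replicate 6 and 1.15 to 1.64 CPM elsewhere. Col6a5 was highest in replicate 4 with 10.15 CPM and lowest in replicate 9 with 0.499 CPM. Mamdc2 ranged from 0.493 CPM in replicate 5 to 9.83 CPM in replicate 4, and Chrdl2 from 0.134 CPM in replicate 9 to 2.72 CPM in replicate 4.

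**Figure D3:**
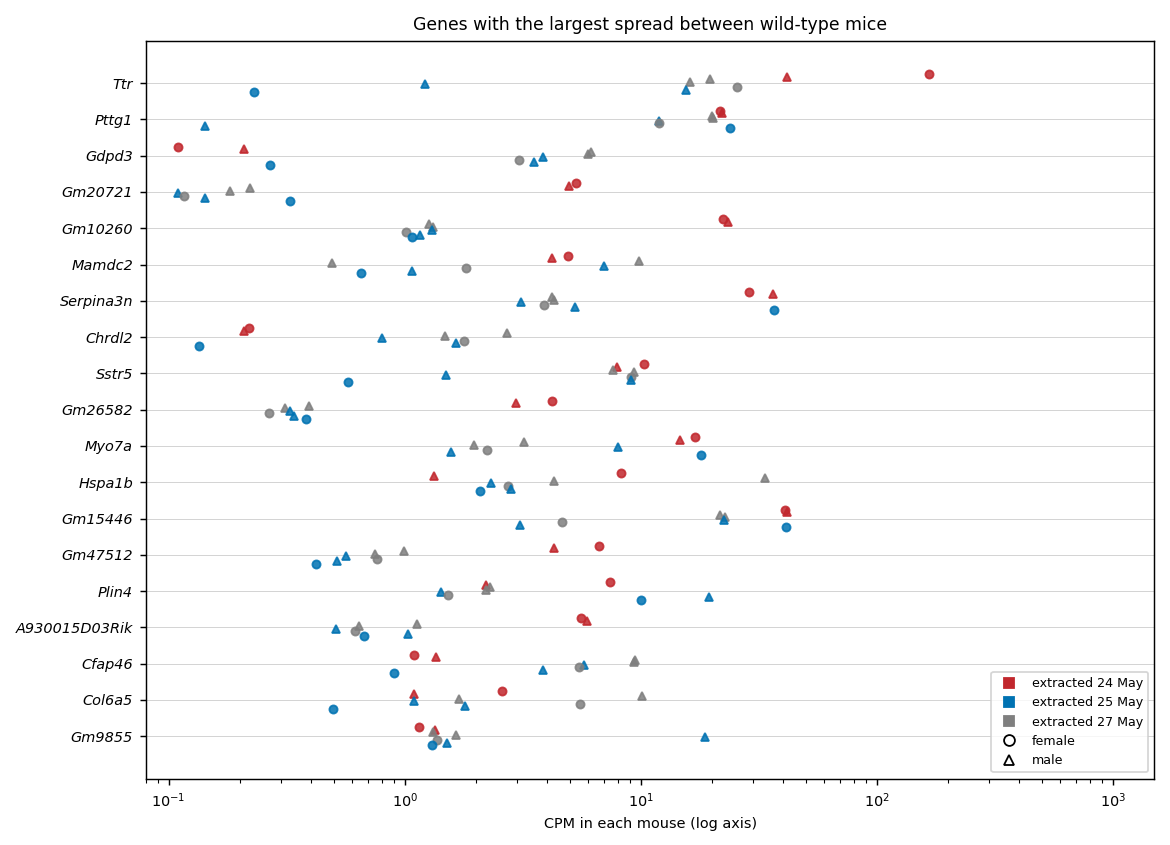
CPM (log axis) in each wild-type mouse for genes among the 20 with the largest SD of log2 CPM. Colours give the extraction day and shapes the sex; Ttr spans 0.230 to 167 CPM, and Pttg1, Gm15446 and Myo7a fall into separate steps.

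Hspa1a and Hspa1b, adjacent genes for the stress-inducible Hsp70 chaperone, were both highest in replicate 4. Hspa1b had 8.25, 1.325, 33.6, 4.31, 2.315, 2.75, 2.82 and 2.09 CPM in replicates 1, 2, 4, 5, 6, 7, 8 and 9, and Hspa1a had 6.94, 2.13, 34.0, 4.64, 2.90, 2.77, 2.39 and 3.36 CPM. Replicate 4 stood above the other 7 mice in both. The 2 copies are nearly identical and reads that align equally to both were not counted, so how the remaining reads divide between them is uncertain. Dnajb1, a co-chaperone gene, was also highest in replicate 4 (87.2 CPM against 41.6 to 64.0), while Hspa8 and Hsph1 were highest in replicate 8, with 668 and 631 CPM. Their upstream sequences are shown because the pair moved together, taken from RefSeq on GRCm38.p6, each the 250 bases before the start site on the minus strand (chr17:34972157-34972406 for Hspa1a and chr17:34959239-34959488 for Hspa1b). Capitals mark the 8-letter pair of inverted heat shock units, searched on both strands as GAANNTTC or TTCNNGAA.
Hspa1a: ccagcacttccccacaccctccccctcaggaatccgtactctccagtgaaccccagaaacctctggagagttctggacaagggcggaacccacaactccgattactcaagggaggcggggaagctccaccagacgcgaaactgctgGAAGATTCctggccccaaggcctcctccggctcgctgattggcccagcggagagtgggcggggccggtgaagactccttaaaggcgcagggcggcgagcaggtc
Hspa1b: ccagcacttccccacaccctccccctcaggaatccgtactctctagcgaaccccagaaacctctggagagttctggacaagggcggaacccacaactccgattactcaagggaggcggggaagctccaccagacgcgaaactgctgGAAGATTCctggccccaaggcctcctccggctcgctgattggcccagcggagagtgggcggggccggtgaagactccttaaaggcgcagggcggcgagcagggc

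The windows of Hspa1a and Hspa1b differed at 3 of 250 bases and each held 1 match, starting 104 bases before the start site. Of all 32851 such windows, 12.8% held the motif, as did 5 of the 9 heat shock genes with a window, with Hspa1a and Hspa1b counted separately. Dnajb1, also highest in replicate 4, had 0 matches, and Hsph1, highest in replicate 8, had 1. A match describes the letters only.

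Immediate-early genes, which neurons switch on within minutes of activity, were uneven: 13 of 23 ranked members lay above the 95th percentile of SD over all genes. Their sum ran from 1649 CPM in replicate 7 to 2454 CPM in replicate 4. Egr1 was highest with 115 CPM per kb and Bdnf lowest with 0.1115. Fos had 13.4 and 13.7 CPM in replicates 4 and 5, both extracted on 27 May, and 4.31 to 6.58 CPM in the other 6, including replicate 7 of the same day. Nr4a3 had 108 CPM in replicate 4 and 17.8 to 53.8 CPM elsewhere. Fosl2 had 114 CPM in replicate 4 and 28.9 to 73.0 CPM elsewhere.

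A different group of mice was high for several glucocorticoid-responsive genes, a list in which 7 of 16 ranked members lay above the 95th percentile. Plin4, a lipid droplet gene, had 7.43, 19.5 and 10.0 CPM in replicates 1, 8 and 9 and 1.42 to 2.31 CPM in the other 5. Zbtb16 had 23.5, 28.5 and 22.7 CPM in the same 3 mice and 4.12 to 7.18 CPM elsewhere. Tsc22d3 (GILZ) had 104.5, 112 and 83.3 CPM there and 45.1 to 66.2 CPM elsewhere. Sgk1 had 280, 144 and 165.5 CPM there and 94.7 to 136 CPM elsewhere. How many of all ranked genes, or of the other list members, set replicates 1, 8 and 9 apart was not counted. The 3 mice differ among themselves in sex, series letter and extraction day. Fkbp5 showed the same 3 mice on top with a smaller spread (64.2 to 79.3 against 51.4 to 55.5 CPM). These mice were singled out after the values were seen, and no test was made of them.

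Clock genes moved less. Their median SD was 0.196 and Ciart had the largest coefficient of variation, 38.6%, with a range from 7.97 CPM in replicate 2 to 27.4 CPM in replicate 9. Dbp, an output gene of the clock, was lowest in replicates 1 and 2 (92.7 and 71.9 CPM) and highest in replicate 9 (155 CPM). Arntl, whose peak is opposite in phase to that of Dbp, was highest in replicates 1 and 2 (70.8 and 58.5 CPM) and had 35.9 to 53.2 CPM in the other 6. The hour of dissection was not given in the sources used here.

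Summed marker lists put the tissue make-up of the dissections on a common scale. Medium-spiny neuron markers summed to 10189 to 11617 CPM, a coefficient of variation of 4.60%, and interneuron markers to 370 to 461 CPM (6.64%). Oligodendrocyte markers ran from 6282 to 8515 CPM (9.91%), with replicate 2 highest and replicate 6 lowest. Oligodendrocyte precursor markers summed to 466 to 606.5 CPM. Astrocyte markers had a coefficient of 5.385%, microglia markers 8.13% and vessel markers 8.89%. Blood markers ranged from 109 CPM in replicate 1 to 206 CPM in replicate 4. Septal, thalamic and other subcortical markers summed to 60.7 to 77.7 CPM, with Slc17a6, the thalamic glutamate transporter gene, at 0.489 CPM per kb and Hcrt at 0.0130 CPM per kb.

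Markers of cortical projection neurons summed to 313 to 378 CPM over the 12 listed genes, and Lamp5, Nptxr, Mef2c and Cux2 made up most of that. The other 8, a choice made after the values were seen, summed to 12.25 CPM in replicate 7, 18.15 in replicate 8, 26.6 to 28.3 in replicates 1, 2 and 9, 37.3 and 40.5 in replicates 5 and 6, and 65.5 in replicate 4, a coefficient of variation of 51.1%. The 4 genes left out did not follow this order. Over all 12 genes replicate 4 had 377.6 CPM and replicate 8 had 374.7 CPM, so those 4 were together lower in replicate 4 than in replicate 8. Mef2c is also a member of the list of striatal transcription factors. Slc17a7, the glutamate transporter gene of cortical neurons, led the 8 with 47.6 CPM in replicate 4 and 7.74 CPM in replicate 7. Ependymal markers were also highest in replicate 4 (25.55 CPM against 9.64 to 17.9 CPM), as were the ciliary genes Dnah10, Dnah11 and Ak7 and the proliferation genes Top2a and Mki67, and replicate 9 was lowest for these 5. Top2a had 6.85 CPM in replicate 4 and 0.537 CPM in replicate 9. The part of these neighbouring cells in the genes that were high in replicate 4 was not tested.

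Blood markers were Hbb-bs (81.1 CPM per kb), Hbb-bt (44.3), Hba-a2 (35.75), Hba-a1 (33.5) and Alas2 (1.17). Ependyma markers were few counts each, from Foxj1 with 2.61 CPM per kb through Rarres2 (1.64), Dynlrb2 (1.07), Tmem212 (0.798) and Pifo (0.521) to Ccdc153 (0.451). Of the oligodendrocyte precursor markers, Bcas1 had 74.9 CPM per kb, Olig1 39.7, Gpr17 10.4, Olig2 8.50, Pdgfra 6.40 and Cspg4 1.55. Immune genes had low to moderate sums: interferon-induced genes 58.2 to 79.25 CPM, complement genes 209 to 372 CPM with replicates 1 and 2 highest, and MHC genes 135 to 177 CPM.

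**Figure D4:**
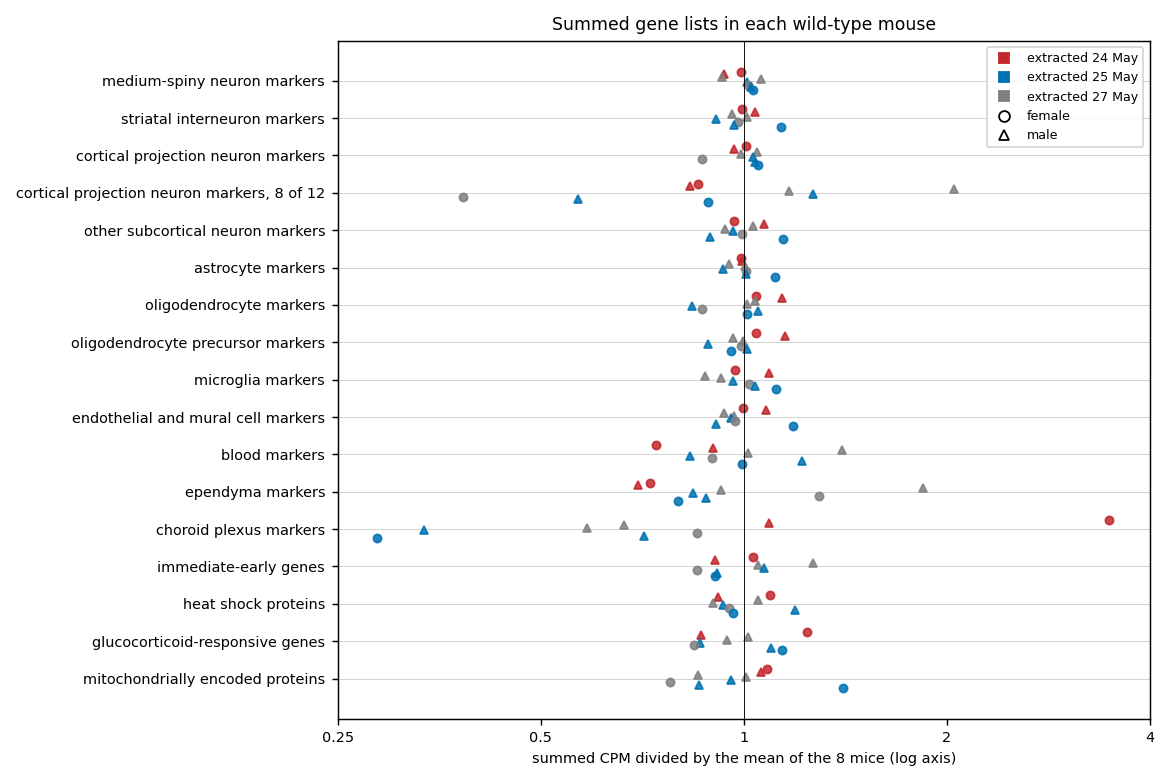
Summed CPM of each gene list in each wild-type mouse, divided by the mean of the 8 mice (log axis), with colours for the extraction day and shapes for the sex. Medium-spiny neuron markers keep close to the mean (10189 to 11617 CPM), while choroid plexus markers (17.8 to 216 CPM) spread widely. So do 8 of the 12 cortical markers, chosen after the values were seen (12.25 to 65.5 CPM), whereas all 12 cortical markers sum to 313 to 378 CPM.

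The summed medium-spiny neuron markers were set against the summed markers of each of 11 other cell types across the 8 mice. Pearson's r ran from -0.43 for oligodendrocytes (Spearman's rho -0.33) to 0.44 for astrocytes (rho 0.69). For astrocytes the exact two-sided permutation p was 0.282 for r and 0.0694 for rho, and for oligodendrocytes it was 0.289 and 0.428. After Benjamini-Hochberg adjustment over the 11 relations the lowest value was 0.897 for r and 0.763 for rho, so none passed. Without replicates 2 and 4, the mice farthest from the median, r was 0.35 for astrocytes and 0.18 for oligodendrocytes, while it went from -0.225 to -0.682 for choroid plexus and from -0.238 to 0.601 for blood markers. The sign turned without those 2 mice for the cortical, septal, ependyma, oligodendrocyte, microglia and blood markers, so the direction of these relations rested on them. With every value centred on the mean of its extraction day, an alternative chosen after seeing the data, r was 0.421 for astrocytes (exact two-sided permutation p within days 0.0556, adjusted 0.55), -0.203 for oligodendrocytes and -0.906 for ependyma (0.125, adjusted 0.55), and no relation passed.

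Mitochondrial transcripts differed by mouse as a block. The 12 protein genes summed to 60275 CPM in replicate 7 and 108626 CPM in replicate 9, and mt-Co1 had 20794 and 36264 CPM in these mice. Mitochondrial genes took 10.4% of the counts in replicate 9, the 1 wild-type mouse of the Z series. They took 8.22% and 8.26% in the A mice and 6.14% to 7.81% in the V mice. In the 27 other mice they took 8.22% to 11.1% in the Z series. There the A series had 8.41% to 9.31% and the V series 7.01% to 8.66%. This share was not tested against the series letter. Replicate 9 also had the largest share of spike-in RNA (1.01%) and the fewest genes with at least 6 counts (17832 against 18014 to 18357). The part of these measures in the genes that set replicate 9 apart was not tested. On the first principal component of log2 CPM, which held 23.7% of the variance, replicate 9 lay at 24.6 and replicate 4 at -21.1, and the A mice at 16.2 and 11.7. On the second (17.3%) replicate 8 stood alone at -27.7, against -6.24 to 13.7 for the others.

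Sex was tested with extraction day in the model. Of 16777 genes tested by edgeR's quasi-likelihood test, 2 passed an adjusted p of 0.05 (0.0119%), and 753 had an unadjusted p under 0.05. Xist was higher in females by 12.65 ± 0.1635 on the log2 scale (± SE) (adjusted p = 1.88e-10). Gm2223, an X-linked pseudogene, had 57.9, 57.0 and 53.8 CPM in females and 34.6 to 38.8 CPM in males, a log2 difference of 0.60 ± 0.0612 (adjusted p = 0.0220). Both also passed in the 27 other mice, where 12 of 17287 genes did (0.0694%), with log2 differences of 12.7 and 0.58. Genes known to escape X inactivation were higher in females without passing: Eif2s3x had 16.3 to 18.8 CPM in females and 8.56 to 11.9 CPM in males (adjusted p = 0.0940), and Kdm6a had 54.7 to 63.9 against 41.3 to 44.7 CPM (adjusted p = 0.350). The Y-linked genes were at or near 0 in females, such as Ddx3y with 89.5 to 94.4 CPM in males, and so failed the count filter. With chromosomes X, Y and MT left out, 0 genes passed by edgeR, with 733 at an unadjusted p under 0.05, whereas DESeq2 on all chromosomes called 16 genes, 10 of them autosomal. Without replicate 8, 3 genes passed. Without any one of replicates 1, 2, 4, 5, 6, 7 or 9 only 1 gene passed, since Gm2223 was lost (adjusted p = 0.0820 to 0.257). Among the 50 most variable genes, females and males did not overlap in 2, Eps8l1 and Rps2-ps10, against 2.63% of all ranked genes.

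Extraction day was tested in the same model with sex. Among the 3 days 13 of 16777 genes passed (0.0775%), and 926 had an unadjusted p under 0.05. All but Bhlhe40 and Hddc3 were among the genes that set 24 May apart. Bhlhe40, a clock-linked repressor gene, had 49.9 to 53.6 CPM in the mice of 24 and 27 May and 69.0, 80.2 and 92.1 CPM in those of 25 May (adjusted p = 0.0365). Hddc3 had 24.3 to 27.7 CPM on 27 May, 8.84 to 15.7 CPM on 25 May and 8.41 to 8.78 CPM on 24 May (adjusted p = 0.0389). The count was 3 without replicate 2, 4 without replicate 1 and 29 without replicate 8. Between 25 and 27 May no gene passed (0%), with 833 at an unadjusted p under 0.05, 6 by DESeq2 and 6 without replicate 8. Of the 50 most variable genes, 4 did not overlap between these days, against 9.45% of ranked genes.

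The A-series mice of 24 May differed from the other 6 in 22 genes (0.131%), 18 higher (0.107%) and 4 lower (0.0238%), with 973 at an unadjusted p under 0.05. The 2 groups did not overlap in any of the 22, a property that 8.2% of all ranked genes had, and 15 of the 50 most variable genes had it. The count was 8 without replicate 1, 6 without replicate 2, 14 without replicate 4 and 12 without replicate 5, and 13 when a mean of at least 1 CPM was also asked. Without replicate 8 it was 28, and DESeq2 called 70. The 22 fell mostly into genes of chromosome 17 and genes that overlap an abundant gene on the other strand.

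On chromosome 17 lay 10 of the 22, against 4.82% of all genes tested. Between 32 and 37 Mb, limits set after the positions were seen, lay 8 of the 10, against 169 of the 809 chromosome 17 genes tested. That stretch holds the mouse major histocompatibility complex. C4a, a copy of complement component C4, had 18.4 and 22.2 CPM in replicates 1 and 2 against 4.54 to 8.09 CPM in the other 6 mice (adjusted p = 0.0106). Its near-identical neighbour C4b, which did not pass, had 122 and 156 CPM against 35.0 to 85.8 CPM, and how reads divide between the copies is uncertain. Cyp4f14, a fatty acid hydroxylase gene, was lower, with 5.21 and 5.11 CPM against 9.84 to 11.95 CPM (log2 difference -1.07 ± 0.1115, adjusted p = 0.00558). H2-T22, a nonclassical class I gene, had 7.67 and 8.60 CPM against 12.1 to 15.2 CPM (-0.77 ± 0.112, adjusted p = 0.0441). A930015D03Rik, whose end overlaps H2-T22 on the other strand, had 5.61 and 5.89 CPM against 0.510 to 1.13 CPM. H2-T10, H2-Ob and Msh5 completed the block, all higher in the A mice.

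Rps18, a ribosomal protein gene of the same stretch (chr17:33951999-33956001), had 14.7 and 15.7 CPM in the A mice and 26.2 to 29.2 CPM in the others (log2 difference -0.84 ± 0.0777, adjusted p = 0.00236). Gm10260 on chromosome 13, listed by RefSeq as Rps18-ps6, had 22.3 and 23.5 CPM against 1.01 to 1.32 CPM (4.30 ± 0.110, adjusted p = 6.16e-08). Their sum was 37.0 and 39.15 CPM in the A mice and 27.5 to 30.2 CPM in the others. As one is a processed copy of the other, the way reads divide between them is uncertain.

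Of the 22, 8 overlapped an opposite-strand gene of at least 100 CPM, a limit set after the values were seen, against 2.21% of genes tested, and all 8 were higher in the A mice. Gm20721, which lies within Gnas, had 5.34 and 4.97 CPM against 0.109 to 0.326 CPM (4.78 ± 0.287, adjusted p = 0.000129). Gm14703, opposite to Syp, had 4.85 and 3.89 CPM against 0.166 to 0.427 CPM (4.14 ± 0.283). Gm26582, opposite to G3bp2, had 4.21 and 2.96 CPM against 0.265 to 0.393 CPM (3.37 ± 0.228), and both had an adjusted p of 0.0002485. Gm47512 lay opposite to Tspyl4, Slc3a1 opposite to Prepl, Chn1os3 opposite to Chn1, and Gm26592 opposite to Icam5. The extent of overlap was uneven. It covered all of Gm20721 and Gm26592 and 27.5% to 49.6% of Gm14703, Gm26582, Gm47512 and Chn1os3. Only an edge was shared by Slc3a1 (2.14% of its interval) and by mt-Nd6 (2.70%, with mt-Nd5). mt-Nd6, the 1 protein gene on the light strand of the mitochondrial genome, had 108 and 119 CPM in the A mice, 69.0 CPM in replicate 8 and 20.2 to 30.9 CPM in the other 5. The abundant partners did not move with them: Gnas had 369 and 402 CPM in the A mice and 367 to 417 CPM in the others. Over 409 genes that lie inside an opposite-strand gene of at least 100 CPM and at least 20 times as abundant, the summed level was 162.6 and 163.0 CPM in the A mice and 127 to 140 CPM in the other 6. By that rule the called genes Gm20721 and Gm26592 belong to the 409, so the sum is not separate from the calls. No sum without called genes is given here. Libraries were stranded, and the strand setting of the counting is not given in the sources used here. Tsix, whose interval spans Xist on the other strand, had 1.42, 0.630 and 0.595 CPM in the females, replicates 1, 7 and 9, where Xist had 2241, 2480 and 2393 CPM, so Tsix did not carry the reads of Xist as a whole. The part of this opposite-strand signal in the 22 calls was not tested.

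**Figure D5:**
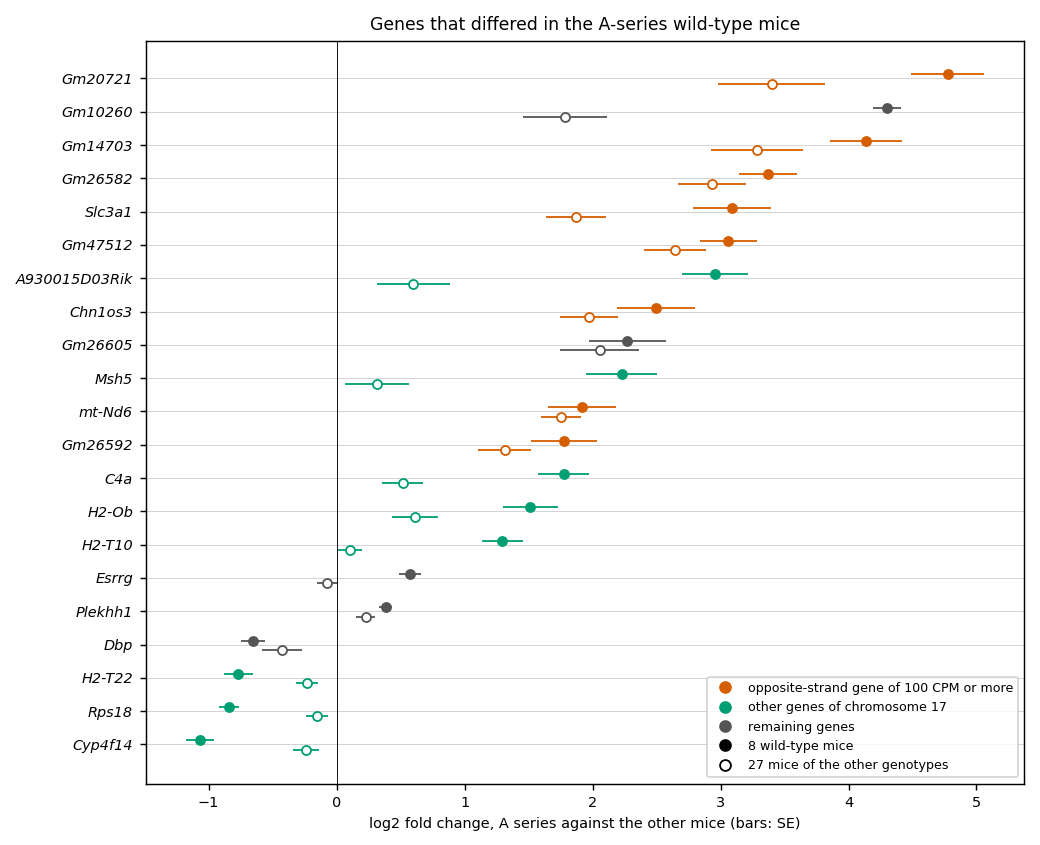
log2 fold change (bars: SE) of the A-series mice against the other mice for 21 of the 22 genes called in wild-type mice, with filled points for the 8 wild-type mice and open points for the 27 mice of the other genotypes. Genes opposite an abundant gene (orange) lie at 1.31 or more in both sets, and chromosome 17 genes (green) lie nearer 0 in the other genotypes.

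The 6 A-series mice of other genotypes were not used in the wild-type test, but they share the series letter with replicates 1 and 2, and 2 of them, HttQ111/+ Hdac2+/+ replicates 1 and 2, were also extracted on 24 May. There 75 of 17287 genes passed the A-series test (0.434%). All 22 genes were tested, 21 had the same sign and 11 passed, among them all 8 genes opposite an abundant partner. That model had no extraction date and no CAG length. In the HttQ111/+ mice that length was 110 to 118 in the A series, 131 to 144 in the V series and 110 to 115 in the Z series. With the date added 10 genes passed in all, 6 of the 22 among them, each opposite an abundant partner, and in the HttQ111/+ Hdac2+/+ mice alone 1 gene passed, mt-Nd6, with 14 of 21 tested genes of the same sign. Those 6 mice had 3.43 to 6.97 CPM of Gm20721 against 0.135 to 2.45 CPM in the 21 other mice, and 77.5 to 149 CPM of mt-Nd6 against 23.5 to 56.1 CPM. Their summed opposite-strand level was 154 to 171 CPM, against 118 to 147 CPM. One of the 21, HttQ111/+ Hdac2+/+ replicate 6 of the Z series, was also extracted on 24 May. That mouse had 43.4 CPM of mt-Nd6 and a summed opposite-strand level of 138.5 CPM. Day and series were not tested against each other for this signal. Of the 9 chromosome 17 genes without such a partner, 9 had the same sign and 1 passed. In 1 of the 6, an Htt+/+ Hdac2D/D mouse extracted on 3 June, there were 24.1 CPM of Gm10260, 21.2 CPM of C4a, 5.94 CPM of A930015D03Rik and 14.4 CPM of Rps18. The other 5, all HttQ111/+ and extracted on 24 May, 25 May or 3 June, had 1.19 to 1.92, 4.33 to 5.65, 0.402 to 1.03 and 27.0 to 30.9 CPM. Whether the A effect differs between the wild-type mice and the others was not tested.

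Outside these groups, Esrrg, Plekhh1 and Dbp passed. Gm26605 passed as well, but its strand was not found in the annotation used, so whether it has an opposite-strand partner is unknown. Its log2 difference was 2.27 here and 2.06 in the A-series test of the 27 other mice, where it also passed (adjusted p = 0.000343). Plekhh1 rose by a log2 difference of 0.38 and Esrrg, an orphan nuclear receptor gene, by 0.57, with 38.0 and 41.1 CPM in the A mice against 23.1 to 32.6 CPM. Esrrg had a log2 difference of -0.08 in the 27 other mice. Dbp fell by 0.65 on the log2 scale (adjusted p = 0.0441) and was the 1 clock gene of 18 called. No member of the receptor, channel, peptide, cAMP signalling, immediate-early, glucocorticoid-responsive, heat shock or cell type marker lists passed the test of sex, of extraction day or of the A series.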

How the data were processed

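Stranded mRNA libraries were made with spike-in RNA and sequenced as pairs. The authors aligned reads with GSNAP to GRCm38 and deposited raw counts per Ensembl gene, tabulated with bedtools from unique alignments over whole gene intervals. Mates appear to have been counted separately, since 8931 gene and library pairs held 2 counts against 3952 with 1 and 1965 with 3. The strand setting is not given in the sources used here. The 92 spike-ins, 6152 genes of up to 250 nt and 2 mitochondrial rRNAs were left out, and 32863 genes kept. A merged exon length from the GENCODE annotation of GRCm38 was matched to 31607 of them (96.2%).

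Counts were scaled by TMM in edgeR (4.0.16, R 4.3.3), and genes with at least 6 counts in every library were tested by its quasi-likelihood test, with extraction day and sex as terms and Benjamini-Hochberg adjustment at 0.05. The common biological coefficient of variation was 0.109. The 27 other mice were fitted with genotype group, sex and A series. Spread was ranked on log2 CPM (prior count 2). Correlations used exact permutations, in 1 alternative within days (scipy 1.17.1). Scripts were tested on simulated data. Each library came from a separate mouse.

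The members and lists were chosen with earlier results of these data known. Named genes were the 20 most abundant, the 20 most variable, the highest and lowest of each list (all members of lists of up to 6), the reference genes, and up to 5 called genes of at least 1 CPM in each direction per test. Those outside this rule, among them mouse-specific high values, other list members, cilia and division genes and the remaining A-series calls, were named after their values were seen. Gpr52, Galr3 and mt-Atp8 were not analysed here, and some genes that the rule names are not reported here. Alternatives were DESeq2 (1.42.0), other size factors, filters and model terms, and leaving out each mouse.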

Additional observations from a re-analysis of the deposited data

Results flagged for a closer look

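In a group of 8 mice, a mouse was taken as standing apart when its gap to the nearest other mouse took more of the whole range than Dixon's 95% critical value for 8 samples allows. Chance alone gives about 1 in 20 such groups. The limit was applied to 43 summed lists and to 223 genes named in the report, and 39 exceeded it. Many of the genes were named for their spread or for a high value in 1 mouse, so this number cannot be read against the chance rate. Each value below is that share of the range.

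Replicate 9 was the 1 wild-type mouse of the Z series and had the largest share of mitochondrial and spike-in counts. It stood apart in the summed reference genes (0.634), the summed astrocyte markers (0.575) and the summed metabotropic glutamate receptors (0.538, low). Among genes it stood apart in Ntsr2 (0.699), Sst (0.633), Atp5b (0.626), Gria1 (0.614, low), Gapdh (0.597), Gng7 (0.592), Ciart (0.582), mt-Nd1 (0.58) and Hcn2 (0.568). Replicate 1 stood apart in the summed choroid plexus markers (0.748), in the choroid plexus genes Ttr (0.752), Prlr (0.689) and Kl (0.582), and in Sgk1 (0.618), Htr1b (0.609), Gm42418 (0.605), Tug1 (0.529) and Tsix (0.619).

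Replicate 4 stood apart in Hspa1a (0.849) and Hspa1b (0.786), whose levels were 34.0 and 33.6 CPM there. It also stood apart in the axonemal dynein gene Dnah11 (0.669), Gsx2 (0.603), Nr4a3 (0.6) and Hba-a2 (0.527), and Hrh4 had counts in that mouse alone (1). Replicate 8 stood apart in Nts (0.88), Malat1 (0.735), Adcy9 (0.644), Hspa8 (0.644) and Scg2 (0.641), and Chrna6 had counts in that mouse alone (1). Replicate 6 stood apart in Gm9855 (0.972) and Rps2-ps10 (0.851), and Galr2 had counts in that mouse alone (1). The share is 1 for Hrh4, Chrna6 and Galr2 because the other 7 mice had no count. Replicate 7 was low in the summed cortical projection neuron markers (0.557), and replicate 2 was high in Pdgfra (0.569).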

How the results depend on the processing

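Counts of calls depended on the method. DESeq2 called 16 genes for sex against 2 by edgeR, 90 for extraction day against 13, 70 for the A-series mice against 22, and 6 between 25 and 27 May against 0. Without a count filter the numbers were 11, 116, 142 and 3. With the spread estimated from all 35 libraries they were 5 for sex and 23 for day. Without sex in the model 20 genes passed for day, a mean of at least 1 CPM left 13 for the A-series mice, and without chromosomes X, Y and MT 0 passed for sex. Leaving out 1 mouse at a time gave 1 to 3 calls for sex, 3 to 29 for day, 6 to 28 for the A-series mice and 0 to 6 between 25 and 27 May. In the 27 other mice DESeq2 called 20 genes for sex against 12. For the A series it called 209 against 75, and the count was 10 with the extraction date added, 39 at a mean of at least 1 CPM and 1 in the HttQ111/+ Hdac2+/+ libraries alone. The cause of these differences was not tested.

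Of the 50 most variable genes, 11 were listed again when a mean of at least 10 CPM was asked, since few of the 50 reach it. Against medium-spiny neuron markers, r turned to -0.281 for interneuron, -0.164 for microglia and -0.414 for endothelial and mural cell markers when scaled by library total. With means of log2 CPM it turned to -0.148 for astrocyte and -0.0782 for endothelial and mural cell markers. For septal, thalamic or other subcortical neuron markers it went from -0.334 to -0.588 by library total and to -0.875 with means of log2 CPM (exact permutation p = 0.0064, adjusted 0.0704). Centred on each extraction day, chosen after seeing the data, it turned to 0.346 for choroid plexus and 0.0186 for oligodendrocyte precursor markers. No relation passed after adjustment under these 3 settings. The summed medium-spiny neuron markers were 11866 CPM with mitochondrial genes left out of the total, against 10958 CPM. The summed cortical markers were 31.98 CPM without Lamp5, Nptxr, Mef2c and Cux2, an alternative chosen after seeing the data, against 360.5 CPM.

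Among the named calls, Gm10260, Gm20721, Gm14703 and Gm26582 passed under every alternative run. Cyp4f14 and Rps18 were lost without replicate 1 or replicate 2, Dbp and H2-T22 in 10 of 16 alternatives and Gm2223 in 7 of 14. No named gene changed sign. No paired analysis was possible because no comparison was made between genotype groups and a replicate number names a single mouse within its group. The fit rested on 2 mice in the A series and had 4 residual degrees of freedom, and counts were 54762608 or more per library.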
